A study of Vitis vinifera with 6 samples.

Results

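The genes described here are the 3 reductase genes that commit flavonoid synthesis to tannins in grapevine (Vitis vinifera): anthocyanidin reductase (ANR, VIT_00s0361g00040) and the leucoanthocyanidin reductases LAR1 (VIT_01s0011g02960) and LAR2 (VIT_17s0000g04150). They were chosen by identifier, all 3 were present among the 29536 genes of the deposited table that could be read, and all 3 passed the filter of 1 RPKM in 3 or more libraries, which left 18749 genes to test. The study sequenced RNA from the seed content of young berries of 6 F1 plants from a cross between Red Globe and Crimson Seedless, both table grapes. The seedless class held 3 hybrids labelled sdi+, from which stenospermocarpic seed traces were taken, and the seeded class held 3 hybrids labelled sdi-, from which seeds were taken. All plants shared the same parents, field, rootstock and management, no treatment was applied, and berries of 10 to 12 mm were collected 4 weeks after anthesis. Seed content of 12 to 50 fruits of 1 hybrid went into each library, so the spread within a class covers differences between hybrids as well as technical error, and no hybrid was measured more than once. Sample titles call the seeded class Seededless, but phenotype, tissue and genotype are labelled seeded, seed and sdi-. The direction of each difference rests on the latter.

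Proanthocyanidins, the condensed tannins of grape seeds, are polymers of flavan-3-ols that build up mainly in the seed coat. ANR reduces anthocyanidins to epicatechin, while LAR reduces leucoanthocyanidins, the step before anthocyanidins, to catechin. Leucoanthocyanidin dioxygenase (LDOX) stands between these branches, because it turns the substrate of LAR into the substrate of ANR. The reductases are therefore the points at which each of these building blocks leaves the pathway.

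Values are RPKM, read counts scaled by gene-model length and library total, which puts genes of different length on 1 scale. Whether reads of the 3 genes were assigned equally well was not tested, and this limit applies to each comparison between them. Library totals recovered from the steps of the RPKM values were 6576771 to 9267652 reads. The same steps gave gene-model lengths of 1203 bp for ANR, 1337 bp for LAR1 and 1359 bp for LAR2, and 63 to 2483 reads behind each of the values below. The 3 seeded libraries correlated with each other at 0.959 to 0.961 across tested genes. Among the traces, replicates 2 and 3 correlated at 0.944, and replicate 1 stood apart from both at 0.847 and 0.862, so fold changes of the reductases are also given without it. These are correlations between pairs of libraries across genes, and genes are not independent replicates. AGL11 (VIT_18s0041g01880), a MADS-box gene of ovule and seed coat identity, was at 47.4, 197.1 and 177 RPKM in seedless replicates 1 to 3. In the seeded libraries it was at 271.7 to 288.4 RPKM. The marker of the labelled tissue was thus present in every library and lowest in seedless replicate 1. Every trace was below every seed library for AGL11, but the difference did not pass limma's test (adjusted p = 0.161). Of 16 alternative settings it passed in 1, the fit without seedless replicate 1 (limma adjusted p = 0.0373). As the classes did not overlap for AGL11, its level cannot tell the amount of this tissue from the sdi class. Whether the AGL11 level depends on sdi itself was not tested. Of 4 listed genes of anthocyanin-forming berry skin, none exceeded 1.03 RPKM in any library, and GST4 was listed at 0 in all. No berry skin was sequenced at this stage, so these low values do not show that skin was absent.

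ANR was the most abundant of the 3 transcripts in every library and was about 2-fold lower in traces than in seeds. The traces had 92.2, 108.7 and 124.4 RPKM (seedless replicates 1 to 3) and the seeds 220.5, 180.3 and 275.4 RPKM (seeded replicates 1 to 3). Every trace was below every seed library, and the lowest trace was again seedless replicate 1. Mean levels were 108.4 ± 16.1 RPKM for traces and 225.4 ± 47.7 RPKM for seeds (SD, n = 3 each), and their ratio was 2.08. The log2 fold change, here and throughout on the log2(RPKM + 1) scale and seedless minus seeded, was -1.04 with an SE of 0.21, and ANR fell in limma's test (adjusted p = 0.0267), as it did without seedless replicate 1 (-0.93, adjusted p = 0.0346). Over the whole table, 12.3% of tested genes passed this threshold, 5.1% as falls and 7.18% as rises. Within its library, ANR ranked 801 to 1356 by RPKM in traces and 298 to 587 in seeds, out of 21028 to 22552 genes above 0. RNA of whole traces and seeds does not tell fewer cells of a type from less transcript per cell, which applies to each difference given here.

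LAR1 showed the larger drop. In replicates 1 to 3 its levels were 26.9, 22.1 and 48.1 RPKM for traces, against 111.1, 74.7 and 169.5 RPKM for seeds. The classes did not overlap, but both were broad: the highest trace had 2.17 times the lowest, and the highest seed library 2.27 times the lowest. Means were 32.4 ± 13.8 RPKM and 118.4 ± 47.8 RPKM (SD, n = 3 each), 3.66 times as much in seeds as in traces, and LAR1 fell by 1.84 on the log2 scale (SE 0.38, limma adjusted p = 0.0309); without seedless replicate 1 the value was -1.75 (0.0472). Only 1.02% of all tested genes had a lower log2 fold change. In traces LAR1 ranked between 2819 and 6371 in its library, in seeds between 621 and 1904.

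LAR2 had the opposite direction, with a difference that did not pass the test. Replicates 1 to 3 held 75.9, 21.5 and 21.1 RPKM as traces and 10.4, 12.5 and 6.18 RPKM as seeds. The lowest trace was thus above the highest seed library, and seedless replicate 1 was 3.53 times as high as the higher of the other traces, a distance that 3.15% of tested genes reached or exceeded in that library. Traces averaged 39.5 ± 31.5 RPKM and seeds 9.70 ± 3.23 RPKM (SD, n = 3 each), and the log2 fold change was 1.7 (SE 0.52; adjusted p of limma = 0.0799). Leaving out seedless replicate 1 gave 1.11 (SE 0.28, limma adjusted p = 0.0505). LAR2 was a mid-ranking transcript in seeds, at position 9267 to 12534 of its library, and ranked 1762 in seedless replicate 1 and 6516 and 6482 in the other traces. The same library held the lowest AGL11 level, and the part of its overall distance from the other traces in the LAR2 difference was not tested.

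**Figure D1:**
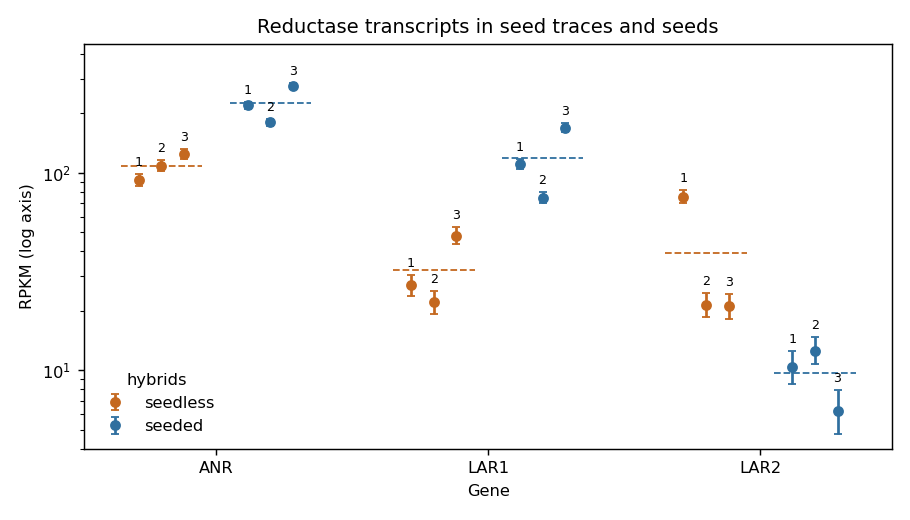
RPKM of ANR, LAR1 and LAR2 on a log axis in each library, numbered by replicate. Bars are exact Poisson 95% intervals of the reads, which cover counting error only, and dashed lines are class means. ANR and LAR1 lie lower in traces, LAR2 lies higher, and seedless replicate 1 stands apart for LAR2 at 75.9 RPKM.

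All 3 genes had classes that did not overlap, and this was true of 39.5% of all tested genes, 20.5% lower and 19% higher in traces. The calls on ANR and LAR1 did not hold in every fit that left out a library. Both lost the threshold without seedless replicate 2 (limma adjusted p = 0.0605 and 0.0677) and without seeded replicate 1 (0.0848 and 0.0934), 2 (0.0584 and 0.0591) or 3 (0.0928 and 0.0949), while their log2 fold changes stayed between -1.19 and -0.88 for ANR and between -2.15 and -1.54 for LAR1. Leaving out a library also moved the calls over all genes, to 3.58%, 2.29% and 2.39% of tested genes without seeded replicate 1, 2 or 3 and to 15.5%, 8.67% and 7.29% without seedless replicate 1, 2 or 3. Quantile normalization put ANR at -0.88, which also missed the threshold (limma adjusted p = 0.0535).

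**Figure D2:**
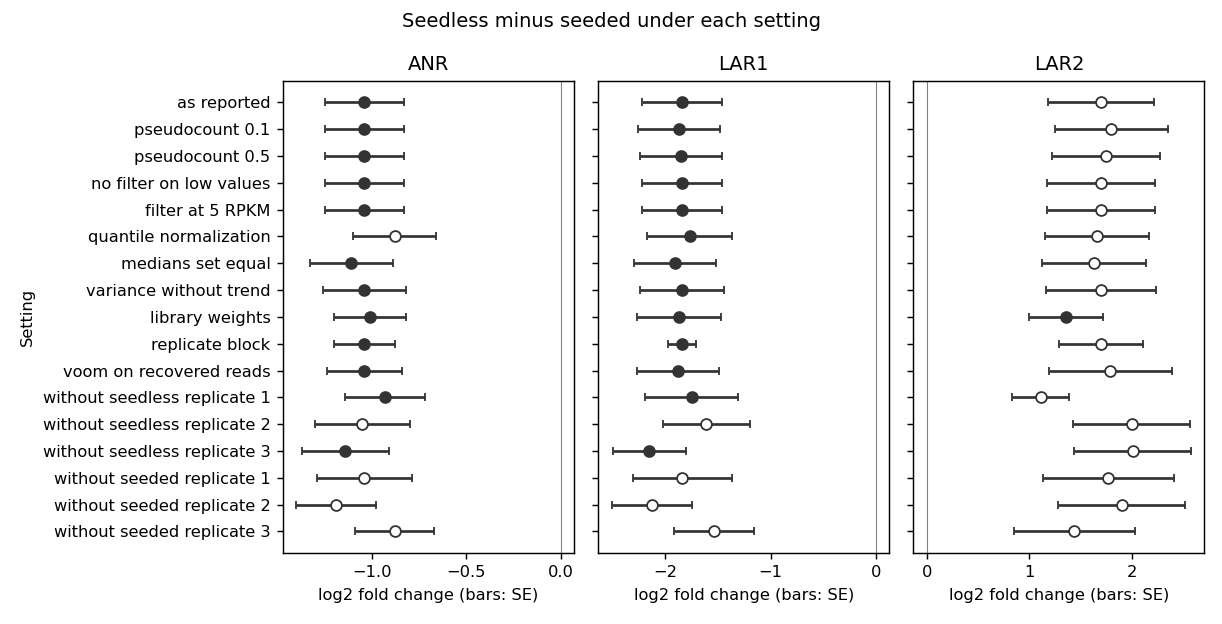
Log2 fold change, seedless minus seeded, of the 3 genes under each setting, with SE as bars. Filled points passed limma's adjusted p of 0.05, and open points did not. ANR stays between -1.19 and -0.88, LAR1 between -2.15 and -1.54 and LAR2 between 1.11 and 2.01.

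Some hybrids of a class had counting intervals that stood apart, and others had intervals that overlapped. Overlap alone does not show that 2 hybrids differed by no more than counting error. LAR1 in seedless replicate 3 rested on 423 reads, with an exact Poisson 95% interval of 43.6 to 52.9 RPKM, and the intervals of seedless replicates 1 and 2 were 23.7 to 30.4 and 19.3 to 25.2 RPKM. Those of seedless replicates 1 and 2 overlapped each other, as did the LAR2 intervals of seedless replicates 2 and 3 and of seeded replicates 1 and 2. The thinnest value, LAR2 in seeded replicate 3, came from 63 reads and had an interval of 4.75 to 7.91 RPKM. On the log2 scale ANR had an SD of 0.21 in traces, below the median of 0.3 over tested genes, and of 0.3 in seeds, where that median was 0.21. LAR1 had SDs of 0.57 in traces and 0.59 in seeds, and LAR2 had 1.03 and 0.47. The latter pair of genes thus varied more within both classes than most genes, since 77% to 92.3% of tested genes had a lower SD. Among the seeds, replicate 3 was highest for ANR and LAR1 and lowest for LAR2, and replicate 2 was lowest for ANR and LAR1 and highest for LAR2.

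In seeds the order of the 3 transcripts was ANR, LAR1 and LAR2 in all 3 libraries, with no overlap between neighbouring genes, and mean LAR1 was 12.2 times mean LAR2. In traces ANR was first in all 3 libraries, 2.75 times mean LAR2 and 3.35 times mean LAR1. LAR1 and LAR2 overlapped there. LAR1 was above LAR2 in seedless replicate 3 and nearly equal to it in seedless replicate 2, so the order ANR, LAR1 and LAR2 of the seeds was broken in seedless replicate 1 alone.

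The distance between both LAR genes was taken as the ratio of LAR1 to LAR2 within each library, a measure that the library total does not affect. The ratio was 0.355, 1.03 and 2.27 in seedless replicates 1 to 3, with binomial 95% intervals (Clopper-Pearson, counting error only) of 0.307 to 0.409, 0.851 to 1.25 and 1.91 to 2.72. In seeded replicates 1 to 3 it was 10.7, 5.96 and 27.4, with intervals of 8.81 to 13.2, 5.03 to 7.1 and 21.3 to 35.8. Traces therefore ran from an excess of LAR2, through equal levels, to an excess of LAR1, while every seed library held mostly LAR1. LAR1 supplied 26.2%, 50.7% and 69.5% of the summed LAR RPKM in the traces and 91.5%, 85.6% and 96.5% in the seeds. On the log2 scale the ratio was -0.09 ± 1.35 in traces and 3.59 ± 1.11 in seeds (SD, n = 3 each). The difference was -3.68, which is 12.8-fold. The classes could not overlap, because every trace was below every seed library for LAR1 and above every seed library for LAR2. For that reason the exact permutation test, two-sided, had to give p = 0.1 and adds nothing to the values of the single genes. That is the smallest p that 3 against 3 libraries allow, and it was 0.25 after Benjamini-Hochberg adjustment over the 5 ratios tested. This exact test therefore cannot reach 0.05 for a ratio, whatever its size. Leaving out any 1 library left the difference between -4.32 and -2.98, the latter without seedless replicate 1.

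**Figure D3:**
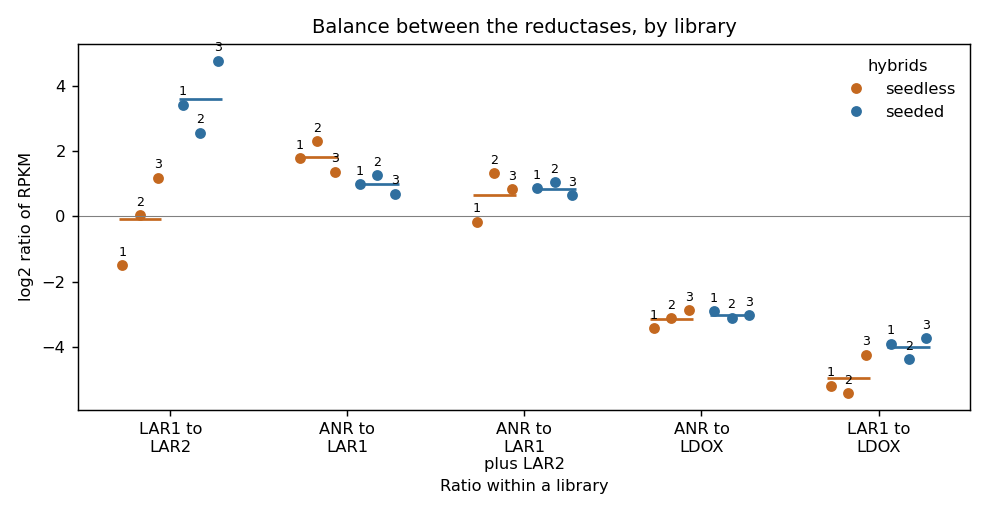
Log2 ratio of RPKM within each library, numbered by replicate, for 5 ratios; short lines are class means. Only LAR1 to LAR2 and ANR to LAR1 have classes that do not overlap, and LAR1 to LAR2 differs by 3.68 on the log2 scale.

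The balance of ANR against LAR depended on which LAR gene was counted. In replicates 1 to 3, ANR to LAR1 was 3.42, 4.91 and 2.59 for traces and 1.99, 2.41 and 1.62 for seeds. These values did not overlap, and the log2 difference was 0.83 (exact permutation p = 0.1, adjusted 0.25). Against the sum of both LAR genes, ANR was at 0.897, 2.49 and 1.8 in the traces and at 1.82, 2.07 and 1.57 in the seeds. These ranges overlapped, and the log2 difference of -0.18 had an exact permutation p of 0.8. It turned to 0.23 without seedless replicate 1, the only library in which the summed LAR level exceeded ANR.

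Summed over the 3 genes, traces held 195, 152.3 and 193.6 RPKM in replicates 1 to 3, and seeds held 341.9, 267.6 and 451.1 RPKM. The lowest seed sum was above the highest trace sum. LAR1 plus LAR2 alone gave 103, 43.6 and 69.3 RPKM in traces and 121, 87.3 and 176 RPKM in seeds, where seedless replicate 1 was above seeded replicate 2. The share of ANR in the sum averaged 61% in traces and 64.3% in seeds, whereas the mean share of LAR1 was 17.7% against 32.7% and that of LAR2 was 21.3% against 3.03%. In seedless replicate 1, LAR2 made up 38.9% of the sum.

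**Figure D4:**
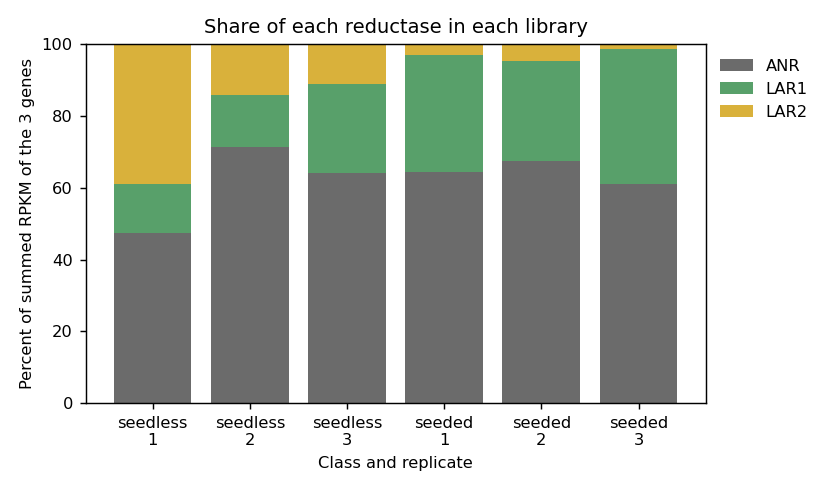
Share of ANR, LAR1 and LAR2 in their summed RPKM in each library, as stacked percentages. LAR2 takes 10.9% to 38.9% in traces and 1.37% to 4.69% in seeds.

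LDOX, which makes the substrate of ANR, was far more abundant than the reductases, at 912.4 to 992.6 RPKM in traces and 1555 to 2248 RPKM in seeds. It missed the threshold at -0.92 on the log2 scale (limma adjusted p = 0.057), but passed in 5 of 16 alternatives (0.0275 to 0.179 over all of them). By replicate, ANR to LDOX was 0.0929, 0.115 and 0.136 for traces and 0.133, 0.116 and 0.123 for seeds. The latter lay within the range of the traces, and the log2 difference was -0.13 (exact permutation p = 0.6). LAR1 to LDOX was 0.0271, 0.0233 and 0.0527 in traces and 0.0668, 0.0481 and 0.0754 in seeds, where seedless replicate 3 overlapped the seeds, with a log2 difference of -0.95 (exact permutation p = 0.2).

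Beside the reductases, 12 other genes of the flavonoid pathway were listed, and 11 were tested. In limma's test, 6 of them fell, 5 missed the adjusted p of 0.05 and none rose, where 5.1% of all tested genes fell. The count of falls was 5, 5 and 4 without seedless replicate 1, 2 or 3, and 1, 2 and 1 without seeded replicate 1, 2 or 3. In the alternatives that kept all libraries it was 4 to 9. Their median log2 fold change was -1.23, against -0.04 over all genes tested. The symbols of 8 listed genes were found in the reference gene table on the chromosome that the identifier gives. Chalcone synthase opens the pathway, and CHS1 and CHS2 fell with log2 fold changes of -1.73 and -1.27. CHS3 was at -0.92 and did not pass (limma adjusted p = 0.0543), though it passed in 5 of 16 alternatives. CHS2 missed the threshold in 8 of 16 alternatives, among them the fits without any 1 library (limma adjusted p = 0.0573 to 0.136), and CHS1 missed it without seeded replicate 1, 2 or 3 (0.0597 to 0.0756). The chalcone synthases are close copies, and their reads may be divided uncertainly. Flavonoid 3'-hydroxylase (F3'H) and dihydroflavonol reductase (DFR), which supplies the substrate of LAR, fell as well (log2 fold changes of -1.31 and -1.47). F3'H passed in all 16 alternatives, whereas DFR missed the threshold when seeded replicate 1 or 3 was left out, at a limma adjusted p of 0.0567 and 0.0571. Flavonol synthase 1 (FLS1), on a competing branch, had a log2 fold change of -0.14, and of 0.99 without seedless replicate 1, passing in neither. The anthocyanin glycosyltransferase UFGT did not reach the filter and was at most 0.372 RPKM.

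**Figure D5:**
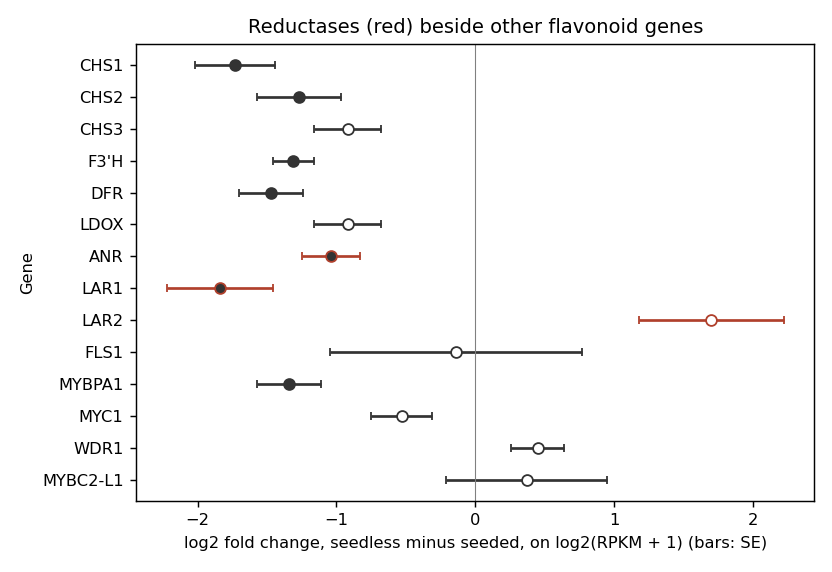
Log2 fold change, seedless minus seeded, on log2(RPKM + 1), with SE as bars, for the reductases (red) and for other named flavonoid genes and regulators. Filled points passed limma's adjusted p of 0.05. LAR2, at 1.7, lies on the other side of 0 from ANR at -1.04 and LAR1 at -1.84.

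Of 11 listed regulators and transporters, 10 were tested, 1 fell, 3 rose and 6 did not pass, where 5.1% of all tested genes fell and 7.18% rose. The fall was MYBPA1, a MYB factor known to activate the promoters of ANR and LAR1 in grapevine. By replicate, the traces held 173.4, 252.5 and 180.1 RPKM and the seeds 409.7, 577.9 and 540.2 RPKM. The classes did not overlap, and the log2 fold change was -1.34 (SE 0.23, limma adjusted p = 0.0179). It missed the threshold when seedless replicate 3, seeded replicate 2 or seeded replicate 3 was left out, at a limma adjusted p of 0.0511, 0.0779 and 0.0784. Among the seeds its order was not that of ANR and LAR1, since seeded replicate 1 was the lowest for MYBPA1 and seeded replicate 2 for the reductases. The bHLH factor MYC1, the WD40 protein WDR1 and the MYB repressor MYBC2-L1 missed the threshold at -0.53, 0.45 and 0.37 on the log2 scale, or at -0.72, 0.49 and -0.2 without seedless replicate 1, where MYBC2-L1 turned direction. The 3 rises were among 7 listed identifiers whose symbols had no single match in the reference table, and they are not named for that reason.

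The genes most like each reductase were sought among 10885 tested genes with a mean of at least 10 RPKM, by Pearson's r of log2(RPKM + 1) over the 6 libraries. For ANR this was VIT_17s0000g08820 (r = 0.9967), at 6.67 to 9.1 RPKM in traces and 13 to 21.7 RPKM in seeds. For LAR1 it was VIT_11s0016g04980 (r = 0.9957), which followed the same order with a much smaller range, from 19.9 to 28.6 RPKM over all libraries. For LAR2 they were VIT_08s0007g01290 (r = 0.9988) and VIT_17s0000g01970 (r = 0.9963); the latter was at 132.9, 21 and 23.6 RPKM by replicate in traces and at 4.34 to 10.3 RPKM in seeds. An r of at least 0.95 was shared by 210, 124 and 280 of the genes compared for ANR, LAR1 and LAR2, so a close match over 6 libraries was common. These correlations describe 6 points that fall into classes, and no p is given. The files pair none of these identifiers with names.

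Genes next to the reductases changed about as often as tested genes in general, at 2 of 19 (10.5%) against 12.3%. Among up to 5 identifiers on either side on the same scaffold, 3 of 8 were tested around ANR and none changed. Around LAR1, 8 of 10 were tested, 1 fell and none rose, with log2 fold changes from -1.63 to 1.15, and around LAR2 8 of 10 were tested, 1 fell and none rose, from -1.36 to 0.37. ANR carries an unplaced identifier, LAR1 lies on chromosome 1 and LAR2 on chromosome 17 by their identifiers.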

How the data were processed

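RNA from seed traces of 3 seedless hybrids and seeds of 3 seeded hybrids was sequenced, 1 library each, with a stranded mRNA kit per the labels' protocols. The authors deposited RPKM values, 1 column per library, under identifiers headed 12X V1. Tools listed, with no role, per the submitters' processing notes are edgeR 2.2.6, HTSeq 0.5.4p5 and TopHat2 2.0.13. Build and strand handling are not given in the sources used here. Of 29548 rows, 12 with a malformed number were dropped.

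The test took genes of 1 RPKM or more in 3 or more libraries, on log2(RPKM + 1), where changes of low genes come out too small, with limma 3.58.1 in R 4.3.3 (eBayes with trend, two-sided, Benjamini-Hochberg over all genes tested, threshold 0.05). Whole reads were recovered by searching for the gene length that makes all values of a gene whole within 0.02 reads; 21196 of 24536 genes above 0 (86.4%) had a chance fit below 0.01. Both steps were tested on simulated data. Read recovery was run on values simulated from genes that it had already recovered, with the lengths found for them. It found 5823 of 5996 genes, 5734 of them with the simulated reads. That result does not cover the genes it had not recovered. With 100 genes changed by 1 on the log2 scale and 100 by 2, limma called 7 and 61 of them. It also called 2 of 18549 unchanged genes. A missed threshold thus does not show that a gene was unchanged. The genes changed in the simulation were fewer than the 2303 called in the data. A simulation with a larger share of changed genes was not tested, so the counts of 7 and 61 hold for this setting only. Voom, run only on those tested genes whose reads were recovered, called 1689 genes. The test on RPKM called 2303 of 18749, so both counts come from different sets of genes. Ratios used RPKM without a pseudocount and exact permutation over the libraries in Python 3.11.15.

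None of the identifiers matched the reference gene table (ASM3070453v1). Names of the 3 reductases came with their identifiers; other symbols were recalled from the published catalogue, and only those found in that table on the same chromosome are named. The 3 genes and all lists were chosen with earlier results of these data known. The genes named are the reductases, those matched list members and, by likeness, 1 gene each for ANR and LAR1 and 2 for LAR2. Alternatives changed the pseudocount, filter, scaling, variance model, library weights, block and unit, or left out each library. Intervals cover counting error only.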

Additional observations from a re-analysis of the deposited data

How the results depend on the processing

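ANR kept its direction in all 16 alternatives and its call in 11, and LAR1 its direction in 16 and its call in 12. ANR had a log2 fold change of -0.88 under quantile normalization (limma adjusted p = 0.0535; 0.0151 to 0.0928 over all alternatives), which missed the threshold. Leaving out 1 library gave -1.19 to -0.88, and for LAR1 -2.15 to -1.54 (limma adjusted p over its alternatives 0.0209 to 0.0949). LAR2 kept its direction throughout, at 1.11 to 2.01 in the fits that omit a library, and passed only with library weights, at 1.36 (limma adjusted p = 0.0413, range 0.0413 to 0.221). Of all genes, 2303 differed, against 3603 under library weights, 350 below an adjusted p of 0.01 and 429 to 2909 in the fits that omit a library. Listed flavonoid genes that fell were 6, against 4 to 9 in the alternatives with all libraries and 1 to 5 in the fits that omit a library. The cause was not tested. Voom used library totals, and the planned TMM factors were not run. No scaling moved the median of all genes by more than 0.07 on the log2 scale. Single genes could move further. Quantile normalization took LDOX from -0.92 to -0.61 and CHS2 from -1.27 to -1.04, while LAR1 and LAR2 stayed at -1.77 and 1.66.

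The log2 ratio of LAR1 to LAR2 differed by -4.32 to -2.98 in those fits and ANR to LAR1 by 0.59 to 1.05. ANR to LAR1 plus LAR2 ran from -0.51 to 0.23 and ANR to LDOX from -0.26 to 0.017, and both turned direction without seedless replicate 1 (exact permutation p = 0.5 and 0.8). LAR1 to LDOX ran from -1.31 to -0.72.

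With the replicate block, 1714 genes passed and 7 flavonoid genes fell, ANR and LAR1 kept their calls at -1.04 and -1.84 (limma adjusted p = 0.0379 and 0.0226), LAR2 stayed at 1.7 (0.0693), and the LAR1 to LAR2 difference was -3.68. The labels name another hybrid for each number, and same-numbered libraries deviated together at only 0.066, 0.179 and 0.098, so the numbers were not taken as pairs.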
